A study of Homo sapiens with 27 samples.

Results

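The receptor tyrosine kinases AXL, TYRO3, MET, KIT, ERBB3, EGFR and FGFR1, whose levels mark the states of melanoma cells, were followed across the groups of a 501mel RNA-seq experiment. The 7 genes were chosen by symbol, and the choice was selected on measured values in part: AXL was already known to differ between genotypes in these libraries, KIT to be higher with HBSS and with Torin, and MET to be higher with HBSS. Values from those comparisons are given below as a description, without a p-value. Of the 7 genes, 6 had a row among the 13523 genes of the deposited table, and all 6 were among the 13052 genes that reached a normalised value of 1 in at least 3 libraries. AXL reached that minimum mainly in the groups in which it was highest. EGFR was not analysed here.

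501mel is a human melanoma cell line with high MITF, grown in medium with serum. The 27 libraries compared WT cells without treatment, WT cells kept for 12 h in HBSS (a saline that replaces the medium and holds glucose but no amino acids), and WT cells given Torin, which blocks the kinase mTOR, at 250 nM for 12 h. They also held cells with TFE3 disrupted (TFE3 KO), TFEB disrupted (TFEB KO) or both disrupted (DKO), each after 12 h of control culture or of the same dose of Torin. Each group had 3 libraries. MITF was not targeted in any group, and TFE3 and TFEB, its close relatives among the transcription factors, had been disrupted with Cas9. Knockout lines had been expanded from single cells, so genotype and clone cannot be told apart. By their labels WT controls were untreated and knockout controls had 12 h of control culture. Genotype therefore cannot be told apart from this handling between a knockout and WT without drug, or between their Torin responses. No source used here states that the libraries of a group came from separate cultures, so p-values measure the spread between libraries, which may be technical.

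Receptor tyrosine kinases cross the cell membrane, bind a growth factor outside the cell, pair, and phosphorylate each other on tyrosine, which recruits adaptors that feed the RAS and PI3K pathways. In melanocytes KIT, the receptor of stem cell factor, is needed for migration and survival. Melanoma cells of the melanocytic, MITF-high state typically carry KIT, ERBB3 and TYRO3, whereas AXL and EGFR are known for the dedifferentiated, MITF-low state and for resistance to targeted drugs.

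MITF, TFE3 and TFEB bind DNA at short stretches called E-boxes, of which CACGTG and CATGTG are the usual forms. RefSeq promoter sequences (GRCh38.p14, the build called hg38 by the submitters) matched 4 of the 6 receptors, AXL, KIT, MET and TYRO3, with 6 start sites between them, and each was searched on both strands from 250 bases before the start to 30 bases into the transcript. CACGTG stood in 6.94% of all 35116 promoters of that length and CATGTG in 10.5%. Promoters of KIT, MET and AXL are shown because these 3 genes were the receptors called with HBSS or between a knockout and WT. For AXL only the downstream window is shown, the one of its windows with an E-box. Capitals mark an E-box, and all 3 windows are on the plus strand, at chr4:54657707-54657986 for KIT, chr7:116671946-116672225 for MET and chr19:41226505-41226784 for AXL.
KIT promoter: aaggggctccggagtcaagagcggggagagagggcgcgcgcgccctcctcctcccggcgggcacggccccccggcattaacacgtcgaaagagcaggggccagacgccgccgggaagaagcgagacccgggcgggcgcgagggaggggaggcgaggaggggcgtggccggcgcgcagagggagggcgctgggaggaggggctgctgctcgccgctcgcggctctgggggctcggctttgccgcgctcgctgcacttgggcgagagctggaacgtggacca
MET promoter: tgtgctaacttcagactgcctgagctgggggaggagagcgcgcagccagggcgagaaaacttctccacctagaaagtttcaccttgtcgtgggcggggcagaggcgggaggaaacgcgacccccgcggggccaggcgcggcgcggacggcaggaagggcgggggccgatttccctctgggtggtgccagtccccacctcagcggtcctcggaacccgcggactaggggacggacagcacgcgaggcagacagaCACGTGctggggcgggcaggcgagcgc
AXL downstream promoter: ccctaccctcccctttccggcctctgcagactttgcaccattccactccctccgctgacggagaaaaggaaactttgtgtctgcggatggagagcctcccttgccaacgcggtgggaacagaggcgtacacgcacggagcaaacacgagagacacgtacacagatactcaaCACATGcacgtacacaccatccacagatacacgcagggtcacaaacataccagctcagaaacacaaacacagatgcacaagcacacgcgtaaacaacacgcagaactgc
The MET window held 1 CACGTG, which began 3 bases after the start. The downstream AXL window held 1 CATGTG on the opposite strand, printed as its complement CACATG, 79 bases before the start. The KIT window, the upstream AXL window and both TYRO3 windows held neither. A match describes letters and not a bound site, and the absence of a match says only that those letters are not in the window. The paper reports binding of MITF, TFE3 and TFEB at MET and KIT, and of none of them at AXL.

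Libraries held between 4147050 and 6526392 reads, recovered as whole numbers from the deposited values, and 3 reads corresponded to a normalised value of 0.460 to 0.711. The library named as the HBSS replicate 3 and that named as the WT Torin replicate 1 held identical values in every gene, so both were left out, leaving 25 libraries with 2 each in WT HBSS and WT Torin. All 8 melanocyte lineage markers were present in every group, and their summed level ran from 6235 to 6429 in WT, from 14354 to 14511 in WT HBSS and from 5168 to 9252 in the other groups. Of the 8 markers of keratinocytes, fibroblasts, leukocytes and endothelium, only COL1A1 had a row, at 5.06 or less. TFE3 mRNA was 24.03 ± 0.285 (SD, n = 3) in WT, 6.30 ± 1.27 (n = 3) in TFE3 KO and 6.35 ± 0.470 (n = 3) in DKO, and TFEB mRNA was 3.25 ± 0.827 (n = 3) in WT, 1.11 ± 0.485 (n = 3) in TFEB KO, 0.661 ± 0.457 (n = 3) in DKO and also low, at 0.681 ± 0.764 (n = 3), in TFE3 KO. The reads come from the 3′ end of the transcript and do not cross the edited sites, so they do not test the disruption of either protein.

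Among untreated WT cells MET had the highest normalised value of the 6 receptors, followed by KIT, FGFR1, ERBB3, TYRO3 and AXL. As 3′ tags, these values do not scale with transcript length, but other differences in tag yield between genes were not tested. The values were 157 ± 19.8 (SD, n = 3) for MET, 123 ± 5.54 for KIT, 66.8 ± 2.49 for FGFR1, 55.4 ± 5.52 for ERBB3, 37.4 ± 5.21 for TYRO3 and 0.831 ± 0.447 for AXL. AXL rested on 2 to 6 reads a library, the other receptors on many more.

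**Figure D1:**
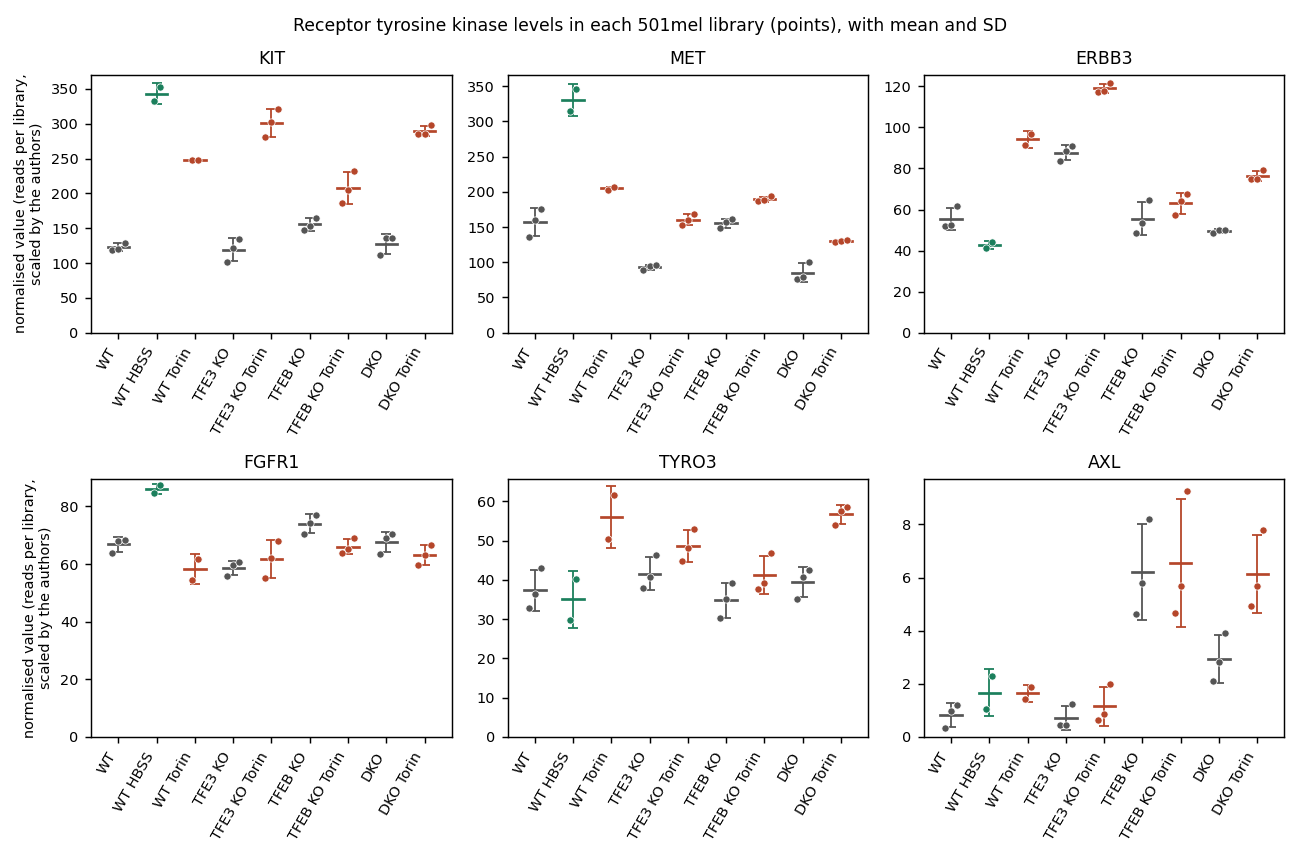
Normalised value (y axis, linear from 0, own scale in each panel) of each of the 6 receptors in the 25 libraries, by group (x axis); points are libraries (grey without drug, green HBSS, red Torin), the horizontal bar is the group mean and the whisker the SD. KIT was highest in WT HBSS at 332 and 353, MET likewise at 315 and 346, and AXL stayed under 10 in all libraries.

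Differences were called when limma's adjusted p, over all 13052 genes, was under 0.05 and the log2 fold difference at least 1. Libraries of compared groups often did not overlap: with HBSS this held for 63.1% of all genes, and between HBSS and Torin for 74%. With Torin the share was 60.2% in WT, 58.4% in TFE3 KO, 47.2% in TFEB KO and 57.1% in DKO. Against WT without drug it was 27.5% for TFE3 KO, 28.2% for TFEB KO and 26.9% for DKO. Under Torin these were 37.1%, 45.8% and 42.4%. Between knockouts it ran from 21.6% to 45.1%. Non-overlap below is a description. With HBSS 2 of the 6 receptors, KIT and MET, were called higher, where 13.1% of all genes were called in either direction. With Torin KIT alone was called, higher in WT (background 9.66%), in TFE3 KO (11.7%) and in DKO (11.1%), and 0 of 6 were called in TFEB KO (5.02%). AXL alone was called higher in TFEB KO than in WT (1.67%), in DKO than in WT (1.82%), in TFEB KO than in TFE3 KO (4.05%), and under Torin in TFEB KO (2.44%) and DKO (2.37%) than in WT. The members were selected with those calls known, so the counts say nothing more about them.

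The other comparisons were not among those in which a receptor was listed as called beforehand, but they were not free of the choice. It had drawn on KIT and MET between HBSS and Torin, on AXL between genotypes, and on AXL and KIT for Torin responses. Between HBSS and Torin in WT ERBB3 was called lower with HBSS, where 16.6% of genes were called. No receptor was called between TFE3 KO and WT without drug (1.52%) or with Torin (1.94%), or between DKO and TFEB KO (3.1%). AXL, whose genotype differences chose it, was called higher in DKO than in TFE3 KO (0.743%) and in TFEB KO than in TFE3 KO under Torin (4.97%). For the change with Torin in a knockout minus that in WT, no receptor was called for TFE3 KO (0.276%), TFEB KO (0.207%) or DKO (0.161%), and at an unadjusted p under 0.05 limma counted 1402, 1771 and 1282 genes.

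KIT, the stem cell factor receptor (chromosome 4, 54657267 to 54740783, plus strand, hg38), was low and even without treatment and high with HBSS. Its values were 119, 129 and 120.0 in WT and 332 and 353 in WT HBSS. The HBSS libraries stood far above every untreated one, by 1.48 on the log2 scale (SE 0.0979, 2.78-fold). With Torin KIT read 248 and 248 in WT, and the 2 libraries lay between the untreated and the HBSS ranges. The log2 difference with Torin was 1.01 in WT (SE 0.0979), near the limit of a call: it was 0.99 without WT replicate 1 and 0.99 without WT replicate 3.

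With Torin KIT stood above the untreated level in every genotype. In TFE3 KO it read 122, 134 and 102 without and 302, 322 and 281 with Torin. In DKO it read 136, 136 and 111 without and 285, 299 and 285 with the drug. In TFEB KO the values were 165, 153 and 148 without and 233, 206 and 187 with Torin, so that the ranges did not overlap in any genotype but came closest in this one. The log2 differences were 1.34 in TFE3 KO (SE 0.0875), 1.18 in DKO (SE 0.0875) and 0.42 in TFEB KO (SE 0.0875). Set against the WT value, that of TFEB KO differed by -0.59 (SE 0.131) and that of TFE3 KO by 0.33 (SE 0.131), the latter 0.12 with the identical column counted as WT Torin. KIT was chosen with its Torin values known, so these are a description.

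Between genotypes at the same treatment KIT was tested where its choice had not used the contrast itself. The contrasts under Torin compare libraries whose KIT values were known at its choice, so a p-value there is not independent of that choice. Under Torin KIT was lower in TFEB KO than in TFE3 KO by a log2 difference of -0.54 (SE 0.0875, lower in all 3 libraries). KIT was chosen knowing that it was called with Torin in TFE3 KO and not in TFEB KO, so this is a description without a p-value. KIT fell by 0.29 on the log2 scale from TFEB KO to DKO without drug (SE 0.0875, adjusted p = 0.0122). That result was lost without TFEB KO replicate 1 (-0.24, adjusted p = 0.0741) or without DKO replicate 3 (-0.19, adjusted p = 0.142). TFE3 KO and WT did not pass the test without drug, with a difference of -0.05 (95% interval -0.23 to 0.13, adjusted p = 0.81), nor under Torin, with 0.28 (0.08 to 0.48, adjusted p = 0.0576), which was 0.07 with the identical column as WT Torin. In the order of group means WT HBSS came before TFE3 KO Torin and DKO Torin, whose libraries overlapped, then WT Torin, TFEB KO Torin and TFEB KO, and last the overlapping groups DKO, WT and TFE3 KO.

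MET, the receptor of hepatocyte growth factor (chromosome 7, 116672196 to 116798377, plus strand, hg38), was raised with HBSS and was lower wherever TFE3 was disrupted. It read 136, 159.7 and 176 in WT, 315 and 346 in WT HBSS, and 207 and 203 in WT Torin. The 3 conditions did not overlap. The log2 difference with HBSS was 1.07 (SE 0.0970, 2.10-fold) and fell below the fold limit without WT replicate 1 (0.97), and that with Torin was 0.39 (SE 0.0970), or 0.62 with the identical column counted as WT Torin. In TFE3 KO MET read 95.7, 94.5 and 88.6 without and 160.3, 153 and 168 with Torin, and in DKO 100.3, 79.5 and 75.6 without and 131, 129.5 and 131 with Torin. Without drug all of these libraries lay below every WT library, and with Torin below both WT Torin libraries. TFEB KO, at 161, 148 and 157 without and 188, 187 and 194 with Torin, overlapped WT without drug and lay just below it with Torin.

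MET was tested in contrasts that had not chosen it. Among the 5 receptors with a p-value in TFE3 KO against WT, 2 passed at an adjusted p under 0.05 (9.41% of all genes did): MET fell by 0.75 on the log2 scale (SE 0.0867, 1.68-fold, adjusted p = 7.58e-09) and ERBB3 rose. MET was also lower in DKO than in TFEB KO, by a log2 difference of -0.87 (SE 0.0867, adjusted p = 4.85e-11), a comparison in which 2 of 5 receptors passed, MET and KIT (25.5% of all genes). DKO and TFE3 KO differed by -0.13 (95% interval -0.31 to 0.04, adjusted p = 0.484). Under Torin MET was lower in TFE3 KO than in WT by a log2 difference of -0.35 (SE 0.0970, adjusted p = 0.0135), which was lost without WT Torin replicate 2 (adjusted p = 0.116), WT Torin replicate 3 (0.0811) or TFE3 KO Torin replicate 2 (0.0606) and was -0.59 with the identical column as WT Torin. It was higher in TFEB KO than in TFE3 KO by 0.24 (SE 0.0867, adjusted p = 0.0273), lost in 4 of the 6 fits that left out a library, with adjusted p of 0.0568 to 0.105. With Torin in TFEB KO MET rose by 0.29 (SE 0.0867, adjusted p = 0.00726), the only 1 of 5 receptors tested there to pass (38.3% of all genes).

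ERBB3, the kinase-impaired receptor of neuregulins that signals through its partners (chromosome 12, 56076799 to 56103505, plus strand, hg38), moved apart from KIT and MET with HBSS. It read 51.8, 61.8 and 52.7 in WT, 41.2 and 44.2 in WT HBSS, and 97.0 and 91.3 in WT Torin. HBSS libraries lay below and Torin libraries above every untreated one. The log2 difference was -0.37 with HBSS (SE 0.109) and 0.76 with Torin (SE 0.109), the latter 0.28 with the identical column counted as WT Torin. Between HBSS and Torin it was -1.12 (SE 0.119, 2.18-fold lower with HBSS, adjusted p = 6.52e-11). The size of that result depends on the name given to the identical column, in which ERBB3 read 34.5. Counted as WT HBSS, the column gave -1.22. Counted as WT Torin, it gave -0.65 (adjusted p = 0.0585), and counted in both groups -0.75 (adjusted p = 0.0148).

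Between genotypes ERBB3 stood highest in TFE3 KO. It read 91.0, 83.7 and 88.6 in TFE3 KO, 48.5, 53.6 and 64.5 in TFEB KO, and 49.9, 48.6 and 50.2 in DKO without drug. TFE3 KO libraries were above all those of the other 3 genotypes, and DKO libraries lay just below the lowest of WT. ERBB3 rose in TFE3 KO against WT by 0.66 on the log2 scale (SE 0.0971, 1.58-fold, adjusted p = 1.64e-06) and was lower in DKO than in TFE3 KO by a log2 difference of -0.81 (SE 0.0971, 1.75-fold, adjusted p = 6.19e-08), the only 1 of 5 receptors tested to pass there (4.87% of all genes). DKO and TFEB KO differed by -0.15 (95% interval -0.35 to 0.04, adjusted p = 0.273). With Torin ERBB3 read 117, 118 and 122 in TFE3 KO, 64.3, 57.3 and 67.4 in TFEB KO and 74.8, 79.1 and 75.0 in DKO, so the 4 genotypes did not overlap, in the order TFE3 KO, WT, DKO and TFEB KO. The place of WT rests on not counting the identical column as WT Torin. With its value of 34.5 as WT Torin, the WT range spans those of DKO and TFEB KO, and the log2 difference of DKO from WT went from -0.30 to 0.17.

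Under Torin ERBB3 was lower in TFEB KO than in TFE3 KO by a log2 difference of -0.91 (SE 0.0971, 1.88-fold, adjusted p = 1.79e-10). There MET and ERBB3 passed at an adjusted p under 0.05, as did 35.2% of all genes, and TYRO3 and FGFR1 did not. KIT was not counted, for the reason given above. Against WT under Torin 2 of 5 passed (9.64%): MET, lower as given above, and ERBB3, higher in TFE3 KO by 0.34 (SE 0.109, adjusted p = 0.0396). The ERBB3 difference missed the threshold in each of the 5 fits that left out a library, with adjusted p of 0.0639 to 0.244, and after median-of-ratios rescaling (0.0514), and was 0.81 with the identical column as WT Torin. The change of ERBB3 with Torin was smaller in TFEB KO than in WT by 0.57 (SE 0.146, adjusted p = 0.0344), the only 1 of 4 receptors tested in that comparison to pass (1.16% of all genes). It was lost in 11 of 21 alternatives, 8 of which left out a library, and was -0.10 (adjusted p = 0.947) with the identical column counted as WT Torin. For the Torin changes of TFE3 KO (1.06%) and DKO (0.506%) against WT, 0 of 4 passed.

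ERBB2, the usual signalling partner of ERBB3, was near the detection limit, at 0.742 ± 0.205 (SD, n = 3) in WT, which is 3 to 5 reads a library, and at 2.95 ± 1.52 (n = 2) in WT Torin. The neuregulin NRG3, a ligand of the ERBB family, rose with HBSS from 6.12 ± 2.18 (n = 3) to 19.3 ± 0.675 (n = 2), a log2 difference of 1.57 (SE 0.239, limma adjusted p = 3.38e-07). NRG2 rose with Torin in WT from 6.14 ± 1.26 to 15.0 ± 3.62, a log2 difference of 1.16 (SE 0.215, limma adjusted p = 1.80e-05), which was under the fold limit without WT Torin replicate 3 (0.93) or with the identical column as WT Torin (0.91). ERBB2 was named after its values were seen, and the neuregulins by the rule for called ligands.

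**Figure D2:**
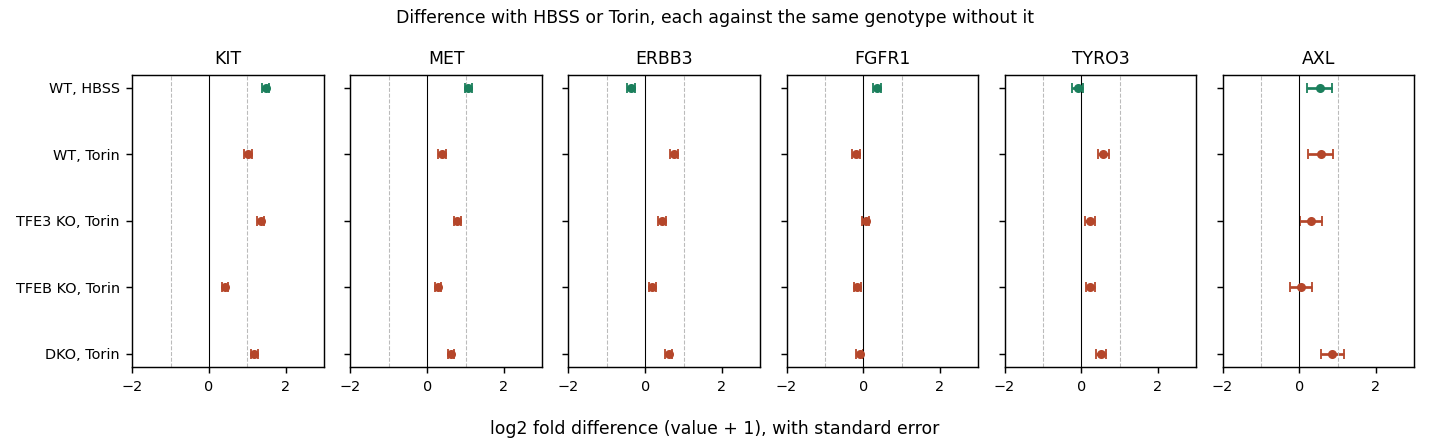
Log2 fold difference (x axis, on value + 1) of each receptor with HBSS (green) or Torin (red), each against the same genotype without it (y axis); points are limma estimates, bars ± 1 SE, and dashed lines mark the fold limit of 1. KIT lay furthest right with HBSS at 1.48, and its Torin value was smallest in TFEB KO at 0.42.

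AXL and TYRO3 belong with MERTK to the TAM receptors, which bind the vitamin K-dependent proteins GAS6 and PROS1. TYRO3 (chromosome 15, 41557675 to 41583589, plus strand, hg38) kept a narrow range, with group means from 34.8 ± 4.42 (SD, n = 3) in TFEB KO to 56.7 ± 2.48 (n = 3) in DKO Torin. It read 43.1, 36.4 and 32.8 in WT, 29.9 and 40.2 in WT HBSS and 50.4 and 61.6 in WT Torin. Torin libraries were above the untreated ones in WT, whereas HBSS libraries overlapped them. The log2 difference with Torin was 0.57 in WT (SE 0.140; 0.38 with the identical column as WT Torin), 0.52 in DKO (SE 0.125), 0.22 in TFE3 KO (SE 0.125) and 0.24 in TFEB KO (SE 0.125, adjusted p = 0.13). Against Torin, TYRO3 was lower with HBSS by a log2 difference of -0.67 (SE 0.154, adjusted p = 0.000324), and 3 of the 4 receptors tested in that comparison passed (49.2% of all genes).

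TYRO3 passed none of the tests between genotypes in which it was given a p-value. The difference of TFE3 KO from WT was 0.15 (95% interval -0.10 to 0.41, adjusted p = 0.53) without drug and -0.20 (-0.48 to 0.09, adjusted p = 0.429) under Torin. Without a p-value, its differences from WT were -0.10 in TFEB KO and 0.08 in DKO without drug, and -0.43 and 0.02 under Torin. The -0.43 (95% interval -0.71 to -0.15) came from libraries that did not overlap and was -0.24 with the identical column as WT Torin. Without drug TFEB KO differed from TFE3 KO by -0.25 (-0.51 to -0.0005), with overlapping libraries. Every neighbour in the order of its 9 group means overlapped the next.

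AXL (chromosome 19, 41219223 to 41261766, plus strand, hg38) was at or near the limit of detection in WT and TFE3 KO and clearly detected in TFEB KO and DKO, at a level still far below that of the other receptors. It read 0.329, 1.19 and 0.976 in WT and 1.24, 0.460 and 0.468 in TFE3 KO, which is 2 to 7 reads a library. It read 8.20, 5.81 and 4.64 in TFEB KO, from 28 to 36 reads, and 3.89, 2.09 and 2.82 in DKO, from 12 to 25 reads. No library of TFEB KO or DKO overlapped one of WT or TFE3 KO, and DKO lay below TFEB KO. Summed over libraries, 95 AXL reads in TFEB KO stood against 13 in WT, a ratio per read sequenced of 8.07, and 55 in DKO gave 3.77. AXL was chosen with these differences known, so the ratios are a description.

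On the log2(value + 1) scale, which understates the change of so low a gene, AXL was higher by 1.98 in TFEB KO (SE 0.291) and by 1.11 in DKO (SE 0.291) than in WT. With a pseudocount of 0.1 the differences were 2.87 and 1.81, and by edgeR on the recovered reads 2.91 and 1.86. The call in DKO was lost without WT replicate 1 (0.89) or DKO replicate 1 (0.94). With Torin AXL read 5.69, 9.27 and 4.68 in TFEB KO, 5.69, 7.78 and 4.92 in DKO, 1.88 and 1.42 in WT, and 0.848, 2.0 and 0.624 in TFE3 KO. Libraries of DKO overlapped those of TFEB KO, and both were above the other genotypes. DKO libraries with Torin were above those without it, at 103 reads against 55, a ratio per read sequenced of 2.12. TFEB KO libraries overlapped between the treatments, at a ratio of 1.16 (exact 95% interval 0.877 to 1.54, counting error only).

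A marker of other cells stood higher in some of the same groups. COL1A1, a fibroblast collagen and the only such marker with a row, was 0.611 ± 0.196 (SD, n = 3) in WT, 0.449 ± 0.384 (n = 3) in TFE3 KO, 3.04 ± 0.773 (n = 3) in TFEB KO and 3.87 ± 1.03 (n = 3) in DKO. MITF itself read 762 ± 37.3 (n = 3) in WT, 713 ± 25.3 (n = 3) in TFEB KO and 556 ± 34.9 (n = 3) in DKO. In TFE3 KO, where AXL was at or near the limit of detection, MITF read 682, 677 and 688. The part of COL1A1 and MITF in the AXL result was not tested, and in bulk RNA few cells with much AXL and many with little cannot be told apart. PROS1, the TAM ligand, stood at 33.9 ± 0.555 (n = 3) in WT, a level chosen for mention after its values were seen.

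**Figure D3:**
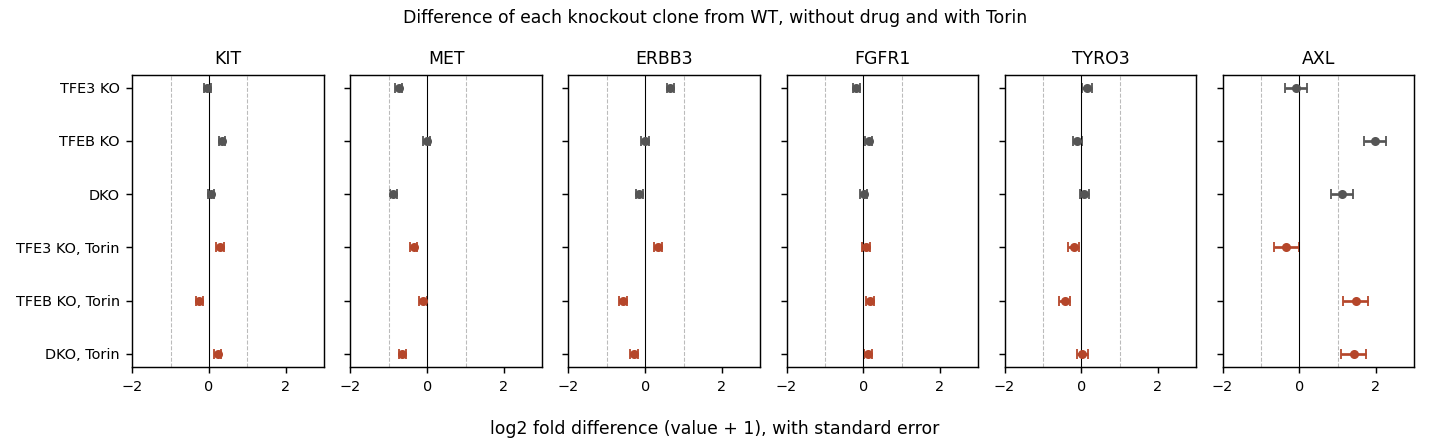
Log2 fold difference (x axis, on value + 1) of each receptor between a knockout line and WT (y axis), without drug (grey) and with Torin (red); points are limma estimates, bars ± 1 SE, and dashed lines mark the fold limit of 1. AXL lay at 1.98 in TFEB KO, MET at -0.75 in TFE3 KO and -0.88 in DKO, and ERBB3 at 0.66 in TFE3 KO.

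FGFR1, a receptor of fibroblast growth factors (chromosome 8, 38400215 to 38468834, minus strand, hg38), varied least. Group means ran from 58.2 ± 5.21 (SD, n = 2) in WT Torin to 86.0 ± 1.83 (n = 2) in WT HBSS. It read 68.4, 63.9 and 68.1 in WT, 84.7 and 87.3 in WT HBSS and 61.9 and 54.5 in WT Torin, and the HBSS libraries were above all the others of the experiment. FGFR1 was higher with HBSS than with Torin by a log2 difference of 0.56 (SE 0.114, 1.47-fold, adjusted p = 7.03e-05). Torin in TFEB KO gave -0.16 (95% interval -0.35 to 0.03, adjusted p = 0.176), and TFE3 KO against WT gave -0.18 (-0.37 to 0.00, adjusted p = 0.237). In the identical column FGFR1 read 67.4, inside the untreated WT range.

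Added together, the 6 receptors reached 440.5 ± 18.7 (SD, n = 3) in WT, 839 ± 47.5 (n = 2) in WT HBSS and 663 ± 4.10 (n = 2) in WT Torin. Without drug the sum was 401 ± 24.1 (n = 3) in TFE3 KO, 481 ± 7.42 (n = 3) in TFEB KO and 372 ± 19.0 (n = 3) in DKO, and with Torin 693 ± 20.2, 575 ± 19.8 and 622 ± 15.8 (n = 3 each). TFEB KO had the highest sum of the knockouts without drug and the lowest with it. KIT took 27.9% ± 1.06 of the sum in WT, 40.9% ± 0.527 in WT HBSS and 46.5% ± 0.249 in DKO Torin, and MET 35.6% ± 3.25 in WT, 39.4% ± 0.415 in WT HBSS and 21.0% ± 0.677 in DKO Torin. MET was therefore the largest share in untreated WT and KIT in the other 2 conditions of WT. These sums use the values that chose KIT, MET and AXL and are a description.

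**Figure D4:**
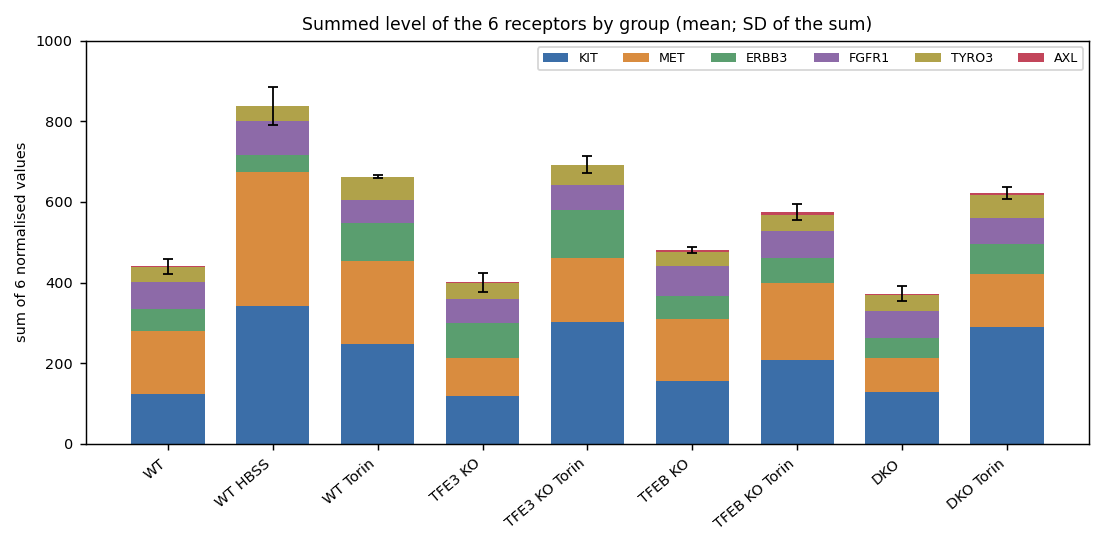
Summed normalised value of the 6 receptors (y axis, from 0) in each group (x axis), stacked by receptor as group means; the whisker is the SD of the sum over libraries. The sum was 839 in WT HBSS and 440.5 in WT, and KIT and MET made up most of every bar.

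Across the 25 libraries on log2(value + 1), which share treatment and genotype groups, MET and KIT had a Pearson r of 0.65, TYRO3 and ERBB3 0.65, and ERBB3 and FGFR1 -0.73. The genes most like KIT were PFKFB2 (r = 0.97), a regulator of glycolysis, ESRP1 (0.96), an epithelial splicing factor, and WDR48 (0.96). Those most like MET were ZBTB10 (0.94), SOX6 (0.93), a SOX-family transcription factor, and HECA (0.93). SNX14 (0.92), DUSP6 (0.91), a phosphatase of ERK, and TPCN2 (0.88), an endolysosomal channel, were most like ERBB3. AMZ2 (0.86), PEX6 (0.85) and SMS (0.83) were most like TYRO3, and ZNF280B (0.86), SESN2 (0.86) and RTN4R (0.85) most like FGFR1. AXL was under a mean of 5 and was not matched. The values describe shared groups and carry no test.

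The rest of the pathway was followed in 4 lists, of which 6 of 27 ligands, 27 of 51 other receptor tyrosine kinases, 29 of 33 adaptors and effectors and 26 of 28 inhibitors were tested. With HBSS 1 ligand was called higher, 2 other receptors higher and 2 lower, 5 adaptors higher and 1 lower, and 2 inhibitors higher and 1 lower, where 13.1% of all genes were called, 901 higher and 809 lower. The median log2 difference was 0.33 for the adaptors and 0.04 for the other receptors, against -0.03 for all genes. EPHA5, an ephrin receptor, rose by 2.05 (SE 0.194, limma adjusted p = 1.83e-12) and EPHB4 fell by 1.53 (SE 0.167, limma adjusted p = 1.04e-10). GAB2, a docking protein that receptors such as KIT and MET use, rose by 1.79 (SE 0.118, limma adjusted p = 1.41e-17), from 51.2 ± 1.61 (n = 3) to 180 ± 2.36 (n = 2), and GAB1, the docking protein best known for MET, rose by 1.37 (SE 0.235, limma adjusted p = 3.33e-06).

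With Torin 3 of 27 other receptors were called higher in WT and in TFE3 KO, 2 higher and 1 lower in TFEB KO, and 5 higher in DKO, with medians of 0.28, 0.22, 0.09 and 0.42 against 0.00, 0.02, 0.00 and 0.02 for all genes. All genes also leaned higher, with 739 called higher and 522 lower in WT (9.66% in all), 911 and 612 in TFE3 KO (11.7%), 439 and 216 in TFEB KO (5.02%), and 892 and 560 in DKO (11.1%). IGF1R, the insulin-like growth factor receptor, rose by 1.03 in WT (SE 0.109), 1.08 in TFE3 KO (SE 0.0974) and 1.02 in DKO (SE 0.0974), with limma adjusted p of 7.10e-11, 3.49e-13 and 2.36e-12. IGF1R was under the fold limit in WT without WT replicate 1 (0.89), without WT Torin replicate 3 (0.92) or with the identical column as WT Torin (0.96), and just under it (0.994 and 0.997) in DKO without DKO Torin replicate 2 or DKO replicate 3. CBLB, a ubiquitin ligase that limits activated receptors, rose by 1.77 in WT, 1.85 in TFE3 KO, 1.14 in TFEB KO and 1.87 in DKO, with limma adjusted p of 2.59e-13, 7.65e-16, 3.81e-09 and 6.60e-16. It was higher with HBSS too, by 1.11 (limma adjusted p = 4.39e-08; 0.96 without WT replicate 1 and 0.93 without WT HBSS replicate 1). DUSP5, an ERK phosphatase, fell by 1.02 in TFE3 KO, 1.26 in TFEB KO and 1.35 in DKO, with limma adjusted p of 0.00044, 4.60e-05 and 8.18e-06, and in TFE3 KO by 0.91 without TFE3 KO replicate 3 and by 0.90 without TFE3 KO Torin replicate 3.

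Between genotypes the insulin receptor INSR fell in TFE3 KO against WT by 1.85 on the log2 scale (SE 0.218, limma adjusted p = 1.02e-08), from 10.6 ± 2.23 (n = 3) to 2.26 ± 0.833 (n = 3), and was the 1 other receptor called there. KITLG, the stem cell factor that binds KIT, was lower in DKO than in TFEB KO by -1.09 (SE 0.270, limma adjusted p = 0.00179), at 3.23 ± 0.731 (n = 3) against 7.93 ± 0.0532 (n = 3). KITLG was higher with HBSS than with Torin by 1.45 (SE 0.331, limma adjusted p = 0.000287), and by 0.97 with the identical column kept in both. The KITLG difference of DKO from TFEB KO was just under the fold limit without DKO replicate 3 (-0.997). EPHA4, an ephrin receptor, was higher under Torin in TFEB KO than in WT by 1.21 (SE 0.155, limma adjusted p = 1.48e-07) and in DKO than in WT by 1.07 (SE 0.155, limma adjusted p = 1.82e-06), and with the identical column counted as WT Torin these were 0.87 and 0.74. The DKO value was also under the fold limit without WT Torin replicate 3 (0.87) or DKO Torin replicate 2 (0.96). No adaptor and no inhibitor was called between any knockout and WT without drug. Of all genes 1.52% were called for TFE3 KO, 1.67% for TFEB KO and 1.82% for DKO. With shares that small, lists of this size can hold no call without standing apart from all genes. At an unadjusted p under 0.05, a looser threshold, limma counted 2898, 3607 and 3229 genes.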

How the data were processed

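RNA of 501mel cells was made into 3′ end libraries (QuantSeq Forward) and sequenced. Per the labels, the submitters' processing notes name FastQC 0.11.9, cutadapt 2.10, STAR 2.7.8a, edgeR and the build hg38. The study's methods name edgeR for normalisation, and CPM from edgeR for some heatmaps. Whether the table holds that CPM, and the counter, annotation, scaling factors and gene filter, are not given in the sources used here. The deposited signal is 1 table of normalised values per gene and library, which the authors scaled before deposit. In each column 100% of values were whole multiples of the value of 1 read, within 0.01 reads, so whole reads were recovered, which gave the depth of 4147050 to 6526392 reads per library and fed the count tests tried as alternatives. Reads carry no molecular identifiers, so intervals cover counting error only. Of the 27 columns 0 belonged to other samples, and the 2 identical ones were left out.

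Values were tested as log2(value + 1) with limma 3.58.1 (trend and robust moderation, R 4.3.3) in 1 fit over the 9 groups, for the 13052 genes that reached 1 in 3 or more libraries. P-values were adjusted by Benjamini-Hochberg over these genes in each of the 19 comparisons. Fold changes are on that log scale and understate those of low genes. The script was tested on simulated data. The members and lists were chosen with earlier results of these data known. No p is therefore given for any receptor in the 9 comparisons in which a receptor was already known as called. None is given for AXL between genotypes or Torin responses, or for KIT between Torin and no drug or Torin responses. The same holds for KIT and MET between HBSS and Torin. KIT was tested between TFE3 KO and WT under Torin, with the limit given above, and was only described between TFEB KO and TFE3 KO under Torin. Named genes were the receptors, TFE3, TFEB and MITF, at most 3 called genes with the largest change per list and comparison with a mean of at least 5, the 3 genes of highest correlation per receptor, and the marker genes. 1 marker list is not reported here. Promoters were searched in RefSeq sequences. Alternatives were a pseudocount of 0.1, no filter or a minimum value of 5, median-of-ratios rescaling, edgeR 4.0.16 (quasi-likelihood) and DESeq2 1.42.0 on the recovered reads, a replicate block, the compared libraries alone, the identical column kept, and each library left out. Pathway list genes were added to these alternatives after the data were seen.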

Additional observations from a re-analysis of the deposited data

Results flagged for a closer look

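The change of ERBB3 with Torin was smaller in TFEB KO than in WT by a log2 difference of -0.57 (limma adjusted p = 0.0344), tested as the difference of both changes. ERBB3 read 48.5, 53.6 and 64.5 without and 64.3, 57.3 and 67.4 with Torin in TFEB KO, and 51.8, 61.8 and 52.7 without and 97.0 and 91.3 with Torin in WT. With the identical column counted as WT Torin the difference was -0.10 (limma adjusted p = 0.947).

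The column deposited under 2 names, once as WT HBSS replicate 3 and once as WT Torin replicate 1, entered no comparison, and it held KIT and MET above the untreated WT range. KIT was 381 there, against 119 to 129 in untreated WT, 332 and 353 in the other WT HBSS libraries and 248 in both other WT Torin libraries. MET was 337, against 136 to 176 in untreated WT, 315 and 346 in WT HBSS and 203 and 207 in WT Torin. MITF was 1500 there, against 1392 and 1454 in WT HBSS and 732 and 735 in WT Torin, and TFEB 23.9, against 30.4 and 28.05 in WT HBSS and 5.63 and 4.27 in WT Torin. These 4 genes stood nearer to the WT HBSS than to the WT Torin libraries, and the column was given neither name, since groups were taken from labels alone. Groups held 2 or 3 libraries, so no single library was tested as an outlier within its group.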

How the results depend on the processing

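Of 1642 alternative values of 107 receptor differences, 1528 kept direction and side of the threshold where tested, or moved by less than the spread between libraries, which lets differences near 0 change sign. A further 27 lost and 5 gained significance, 75 moved by more than that spread and 7 tested ones reversed. Of 293 alternative counts of genes called, 250 stayed within 1.5 times. With the identical column as WT Torin, or in both groups, the count with Torin in WT was 799 in either case, between HBSS and Torin 666 or 598, for TFE3 KO against WT under Torin 410 or 412, for DKO against WT under Torin 531 or 535, and for the Torin responses of TFE3 KO 9 or 16 and of TFEB KO 1 in either case. The same settings reversed 3 tested differences of Torin response from WT, ERBB3 in TFE3 KO (0.15), ERBB3 in DKO (0.33) and MET in DKO (-0.0030), and turned the sign of 2 untested ones, the KIT response in DKO (0.17 to -0.03) and ERBB3 in DKO against WT under Torin (-0.30 to 0.17). A minimum value of 5, which tests fewer genes, gave 145 for TFEB KO against WT, and under Torin 162, 190 and 194 for TFE3 KO, TFEB KO and DKO against WT. edgeR gave 1023 for Torin in TFEB KO, and without drug 367 for DKO against WT, 796 for TFEB KO against TFE3 KO, 163 for DKO against TFE3 KO and 611 for DKO against TFEB KO. A pseudocount of 0.1 gave 375 for DKO against WT and 164 for DKO against TFE3 KO, and DESeq2 150 for the latter and 19 for the Torin response of TFE3 KO. Fitting the compared libraries alone gave 155 for TFE3 KO against WT under Torin and 23 and 9 for the Torin responses of TFE3 KO and DKO. The cause of these shifts was not tested, beyond the fewer genes or libraries in a fit.

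Leaving out a library gave 21 to 37, 13 to 41 and 9 to 24 genes for the Torin responses of TFE3 KO, TFEB KO and DKO. KIT in TFE3 KO against WT ranged from -0.14 to a reversed 0.059, the latter without TFE3 KO replicate 3. Where this left 1 library in a group, it was assumed to vary like the other groups. The replicate block gave 1728 genes for HBSS and 1260 for Torin in WT, moved no count by over 1.5 times, and changed 1 receptor call, KIT in TFE3 KO against WT under Torin (adjusted p = 0.0498, limma). Libraries with the same number had a median correlation of 0.0067 (92 pairs) and those with different numbers -0.0022 (185 pairs), so they share only a number. Depth limits AXL, at 2 to 7 reads a library in WT and TFE3 KO.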
